A study of Mus musculus with 6 samples.

Results

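Mouse chromosome 7 carries a run of neighbouring TRIM genes that includes Trim34a, Trim5, Trim12a, Trim12c, Trim30b, Trim30c, Trim30a and Trim30d. These 8 genes of 47729 in the count table were examined in spleens of NOD.B10 and BL/10 mice. They were chosen by name and position, with the difference between the 3 NOD.B10 and 3 BL/10 libraries already known, so that difference is described here without a test. NOD.B10 (NOD.B10Sn-H2b/J) is an inbred strain that develops primary Sjögren's syndrome (pSS) spontaneously, and BL/10 (C57BL/10) is the healthy control strain. No agent or engineered allele was named for either group, all animals were female, and whole spleen was used, so that every value is a mean over many cell types. RNA of 3 NOD.B10 and 3 BL/10 spleens was sequenced with single-end reads of 50 bases, and the deposited values were raw read counts per gene. The labels gave an age of 26 weeks for the 3 NOD.B10 libraries and BL/10 replicate 1, and of 36 weeks for BL/10 replicates 2 and 3, whereas the methods of the study described all animals as age-matched at 26 weeks.

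The labels of these libraries contradicted each other. In each of the 6 samples the description and the column of the count table gave one strain and the title and strain field the opposite one. The strain of the description and column was used, and every direction given here would turn around under the titles. Age was read from the same sample records, and the records with 36 weeks are titled NOD.B10. Whether age follows the description or the title is not known, so the strain of the 36-week animals is uncertain. Every result given for the 26-week libraries carries this doubt. Ifi202b, an interferon-inducible gene known to differ between NOD-derived and C57BL strains, had 838, 624 and 485 counts in the libraries called NOD.B10 and 2, 0 and 0 counts in those called BL/10. This value was known when the strains were assigned.

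TRIM proteins carry a RING domain, B-boxes and a coiled coil, and many of them attach ubiquitin to other proteins. The members of this cluster belong to the TRIM5 group, which is best known for TRIM5 alpha of primates, a factor that binds the capsid of incoming retroviruses through a carboxy-terminal B30.2 (SPRY) domain. Rodents carry several TRIM5-like copies, the Trim12 and Trim30 genes. TRIM30A dampens Toll-like receptor signalling by promoting the loss of TAB2 and TAB3, and TRIM12C acts with TRAF6 to raise type I interferon and NF-kB signalling. Many genes of the cluster are themselves induced by interferon.

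The copies are alike enough that short reads cannot always be placed. Over their aligned coding bases (GENCODE M21, build GRCm38), Trim12a and Trim12c were 96.4% identical, Trim12a and Trim5 97.1% and Trim12c and Trim5 96.6%. Trim30a and Trim30d were 90.2% identical, Trim30a and Trim30c 83.2%, and Trim34a shared between 61.9% and 65.2% with the other members. The first 60 coding bases are shown for 6 members because they show these distances directly, and capitals mark the bases that differ from Trim12c at the same position.
Trim12c: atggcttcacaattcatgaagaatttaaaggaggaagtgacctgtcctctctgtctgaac
Trim12a: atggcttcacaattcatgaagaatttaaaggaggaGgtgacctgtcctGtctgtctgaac
Trim5: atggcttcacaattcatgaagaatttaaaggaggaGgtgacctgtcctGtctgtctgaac
Trim30a: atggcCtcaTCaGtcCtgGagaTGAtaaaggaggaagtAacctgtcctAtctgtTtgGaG
Trim30d: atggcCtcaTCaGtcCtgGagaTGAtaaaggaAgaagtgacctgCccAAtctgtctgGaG
Trim34a: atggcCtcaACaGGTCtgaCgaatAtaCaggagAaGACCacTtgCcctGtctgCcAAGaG
These stretches lie in coding exons at chr7:104348288-104348347 for Trim12c, chr7:104307272-104307331 for Trim12a, chr7:104279673-104279732 for Trim5, chr7:104435942-104436001 for Trim30a and chr7:104487936-104487995 for Trim30d, all on the minus strand, and at chr7:104247731-104247790 on the plus strand for Trim34a. Trim12a and Trim5 were identical over them and differed from Trim12c at 2 bases, Trim30a at 14, Trim30d at 15 and Trim34a at 23. The longest annotated coding sequence was 891 bases for Trim12a and 1491 bases for both Trim5 and Trim12c. TRIM12A is known as a short protein without the B30.2 domain.

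Shared sequence bears on the counts, since featureCounts at its default settings leaves out reads that map to several places and reads that fall in exons of several genes. Of all 50-base windows in the annotated transcripts of Trim34a, 59.7% also occurred in a transcript of another gene, mostly its neighbour Trim34b. The share was 36.6% for Trim5 and 33.7% for Trim12c, each mostly with the other, and 10.5% for Trim12a. It was 7.5% for Trim30d, 6.0% for Trim30a, 1.5% for Trim30b and 0.7% for Trim30c. Trim34a also had 44.4% of its 4255 exon bases inside exons of 3 other genes, with 875 bases shared with Trim34b on the same strand and 405 with Trim12c on the opposite strand. For Trim12c 13.5% of exon bases were shared in this way, for Trim5 2.9%, for Trim12a 1.6% and for the 4 Trim30 genes none. The counts of Trim34a, Trim5 and Trim12c therefore rest on part of their sequence. The windows were taken from annotated reference transcripts (GENCODE M21) and searched only in such transcripts. Copies elsewhere in the genome were not searched, so the shares may be too low. Bases at which NOD.B10 differs from the reference were not seen.

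**Figure D1:**
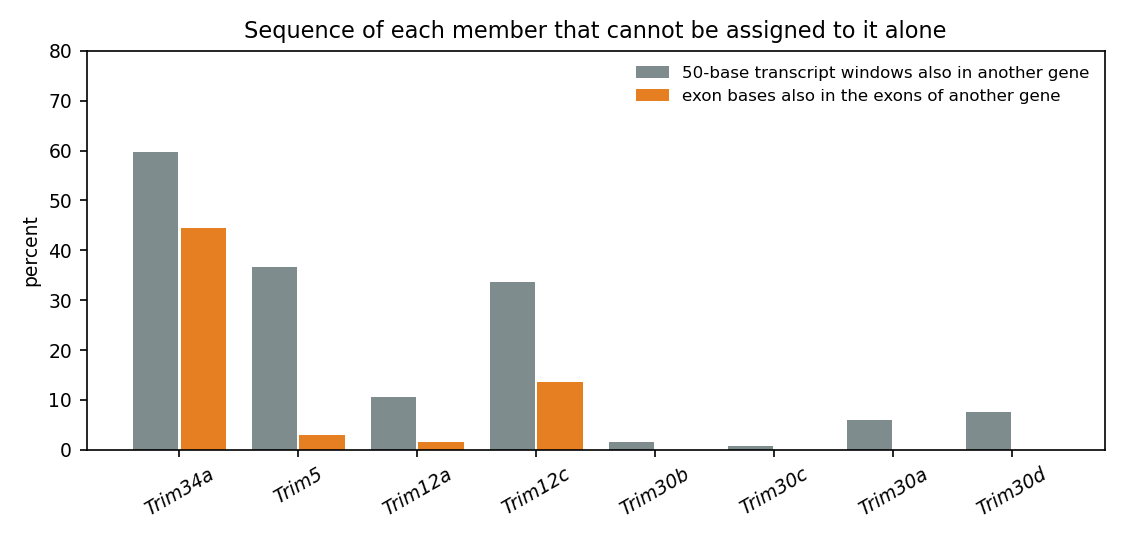
For each member in order along the chromosome, the grey bar gives the percent of 50-base transcript windows found in another gene and the orange bar the percent of exon bases inside exons of another gene. Trim34a has the tallest bars, at 59.7% and 44.4%, and Trim30c the lowest window share, at 0.7%.

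The NOD.B10 libraries held 16257041 to 17160323 counts and the BL/10 libraries 15662712 to 18298451. The floor of detection was set at 3 counts, or 0.163 to 0.201 CPM (TMM-scaled, that is, the counts of a gene per 1000000 of an adjusted library total). This floor covers counting error only. Of the 47729 genes, 15330 had enough counts for the edgeR fit, among them all 8 members. BL/10 replicate 1 stood apart from the other libraries. The summed CPM of 12 pancreas acinar genes was 12510 there, 1945 in BL/10 replicate 2, 107.7 in BL/10 replicate 3 and between 21.9 and 31.0 in NOD.B10. The spleen's own markers were detected in every library, with 6 B cell genes summing to 2990 to 3879 CPM in NOD.B10 and to 2291 to 4239 in BL/10. The sum of 8 T cell genes was 726 to 949 CPM in NOD.B10 and 338 to 448 in BL/10, and that of 8 neutrophil genes was 2110 to 2435 and 6076 to 12720. Summed plasmacytoid dendritic cell genes, a main source of type I interferon, were 267 to 341 CPM and 287 to 403. Red pulp macrophage genes summed to 3076 to 4097 and 3613 to 4185 CPM, and erythroid genes to 26100 to 46740 and 28700 to 66030. None of these spleen markers was at 0. The part of cell makeup and of the pancreas signal in the values below was not tested, and in bulk RNA fewer cells of a type and less RNA per cell cannot be told apart.

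The cluster fell into members that were lower in every NOD.B10 library and members whose libraries overlapped between the strains. Trim12a was nearly without reads in NOD.B10. Trim12c, Trim34a, Trim30c and Trim5 were between 6.78-fold and 2.26-fold lower by mean CPM, and Trim30d was 1.38-fold lower. Trim30a, the member with the highest level, and Trim30b overlapped. All 3 NOD.B10 libraries lay below all 3 BL/10 libraries for 6 members, against 17.5% of all genes tested, and above them for 0 members, against 20.5%. The median log2 fold change of the members was -1.43, and that of all genes was 0.00060. It lies between the values of Trim30c and Trim5 and so does not depend on the fitted fold of Trim12a. Since the members were chosen with this contrast in view, nothing is read from these shares.

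**Figure D2:**
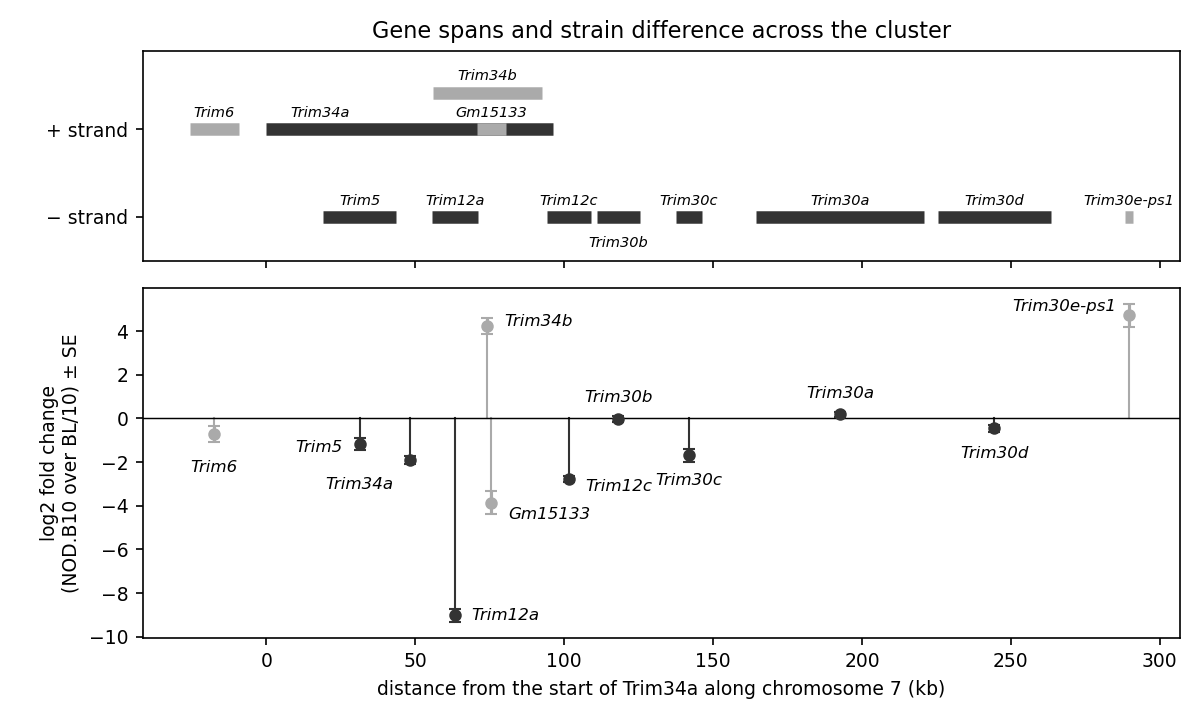
The upper panel draws the span of each gene by strand against distance in kb from the start of Trim34a, with members dark and neighbours grey. The lower panel gives the edgeR log2 fold change of NOD.B10 over BL/10 with its standard error at the middle of each span. Trim12a is lowest, at a fitted -9.02 that depends on the prior count, while Trim34b and Trim30e-ps1 lie above 0, at 4.24 and 4.72.

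Trim12a (ENSMUSG00000066258, chr7:104299894-104315466, minus strand, 5781 exon bases) had 1, 2 and 2 counts in the NOD.B10 libraries and 1251, 773 and 786 in the BL/10 libraries. Each NOD.B10 count was under the floor of 3, and the lowest BL/10 count was 773. The ratio of the scaled counts, BL/10 over NOD.B10, was 560.6, with a 95% counting interval from 240.0 to 1728. Such an interval covers counting error only and leaves out the spread between animals. Mean levels were 0.0983 ± 0.034 CPM in NOD.B10 and 54.8 ± 11.9 in BL/10 (SD, n = 3 each). Of its transcript windows in the reference, 10.5% occurred in another gene. Whether NOD.B10 reads of this gene were misplaced or lost in mapping was not tested.

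Trim12c (ENSMUSG00000057143, chr7:104338754-104353362, minus strand, 3740 exon bases), the partner of TRAF6, had 180, 187 and 190 counts in the NOD.B10 and 1538, 1165 and 1083 in the BL/10 libraries. The NOD.B10 libraries were close together and each was far below the lowest BL/10 library. Mean levels were 10.98 ± 0.44 CPM and 74.4 ± 11.5 (SD, n = 3 each), a log2 fold change of -2.76 (SE 0.13).

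Trim5 (ENSMUSG00000060441, chr7:104263386-104288094, minus strand, 3690 exon bases), the gene named after the primate restriction factor, had 160, 124 and 175 counts in the NOD.B10 and 526, 274 and 246 in the BL/10 libraries. The strains did not overlap, but BL/10 replicate 1 was well above the other BL/10 libraries. Mean levels were 9.01 ± 1.21 CPM and 20.3 ± 7.48 (SD, n = 3 each), a log2 fold change of -1.17 (SE 0.26). Without BL/10 replicate 1 the log2 fold change was -0.85, and with BL/10 replicate 1 as the single BL/10 library, the one labelled 26 weeks, it was -1.66.

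Trim34a (ENSMUSG00000056144, chr7:104244457-104340693, plus strand, 4255 exon bases), an interferon-induced relative of TRIM5, had 95, 92 and 131 counts in the NOD.B10 and 541, 308 and 356 in the BL/10 libraries. Again every NOD.B10 library was below every BL/10 library, and BL/10 replicate 1 was the highest. Mean levels were 6.23 ± 0.98 CPM and 23.4 ± 5.17 (SD, n = 3 each), a log2 fold change of -1.91 (SE 0.19). Its count depends on which reads could be told from Trim34b, which is described below with the neighbouring genes.

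The Trim30 genes differed among themselves. Trim30a (ENSMUSG00000030921, chr7:104409025-104465193, minus strand, 4419 exon bases), the inhibitor of Toll-like receptor signalling, had 2627, 2271 and 2961 counts in the NOD.B10 and 2525, 2271 and 2040 in the BL/10 libraries. The libraries of the strains overlapped. Mean levels were 154.3 ± 13.7 CPM and 135.1 ± 18.3 (SD, n = 3 each), and the log2 fold change was 0.19 (SE 0.12). Trim30b (ENSMUSG00000052749, chr7:104355382-104369884, minus strand, 5954 exon bases) overlapped as well, with 554, 439 and 490 counts in the NOD.B10 and 627, 423 and 447 in the BL/10 libraries. Its mean levels were 29.2 ± 3.41 and 29.3 ± 4.40 CPM, and its log2 fold change was -0.0037 (SE 0.14).

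Trim30d (ENSMUSG00000057596, chr7:104470014-104507849, minus strand, 3758 exon bases) had 620, 425 and 627 counts in the NOD.B10 and 913, 692 and 694 in the BL/10 libraries. The highest NOD.B10 library, at 37.1 CPM, was just under the lowest BL/10 library, at 39.4 CPM. Mean levels were 32.8 ± 5.88 and 45.1 ± 5.19 CPM (SD, n = 3 each), a log2 fold change of -0.46 (SE 0.15). Trim30c (ENSMUSG00000078616, chr7:104382065-104390586, minus strand, 1542 exon bases) was the member with the fewest BL/10 reads, with 31, 14 and 41 counts in the NOD.B10 and 109, 84 and 85 in the BL/10 libraries. All NOD.B10 libraries were below all BL/10 libraries, with NOD.B10 replicate 2 the lowest. Mean levels were 1.67 ± 0.74 and 5.46 ± 0.56 CPM (SD, n = 3 each), a log2 fold change of -1.69 (SE 0.31).

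**Figure D3:**
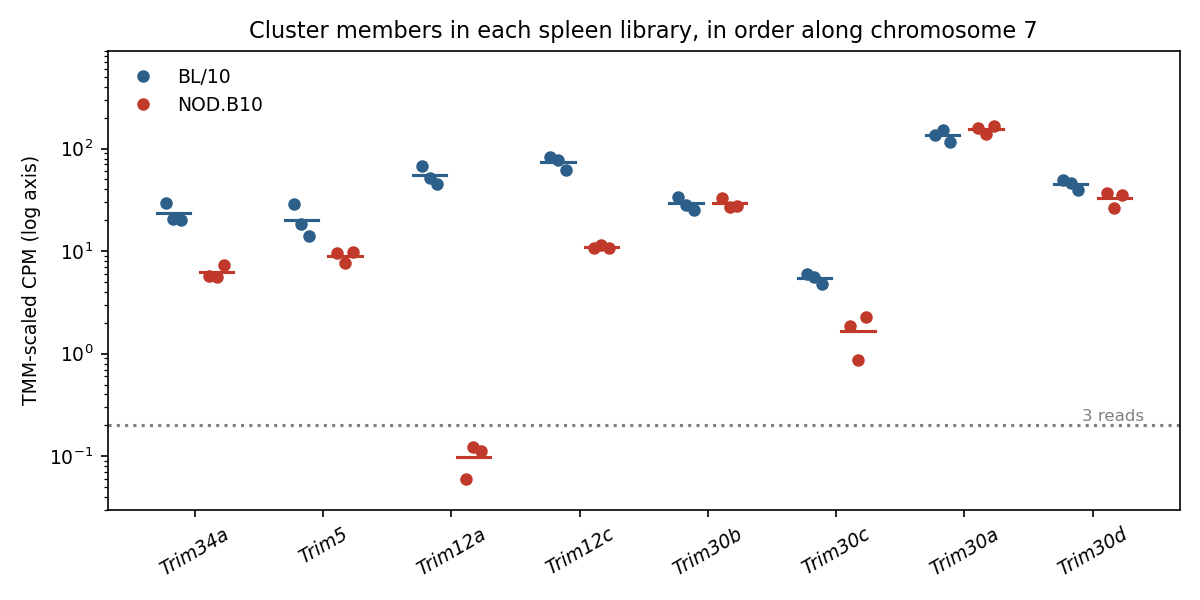
TMM-scaled CPM on a log axis for each member in each library, with BL/10 in blue, NOD.B10 in red, bars at the mean of 3 libraries and a dotted line at the highest level of 3 reads in a library. The Trim30a and Trim30b points overlap between strains, and the Trim12a points of NOD.B10 lie under the dotted line.

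Sums over close relatives split by family. The Trim30 sum is mostly Trim30a and also holds Trim30c and Trim30d, which were lower in every NOD.B10 library. The 4 Trim30 genes together reached 229, 193 and 231 CPM in NOD.B10 and 227, 233 and 186 in BL/10. Their means were 218.0 ± 21.3 and 215.0 ± 25.6 CPM, and the strains overlapped. Trim5, Trim12a and Trim12c together reached 20.4, 19.2 and 20.6 CPM in NOD.B10 and 180.0, 148 and 120.2 in BL/10. This sum was 7.45-fold lower in NOD.B10 by the means (20.1 ± 0.75 and 149.5 ± 29.95 CPM). A read shared between 2 of these 3 genes is lost from all of them, and the sum does not restore it. All 8 members together reached 244.3 ± 22.7 CPM in NOD.B10 and 387.9 ± 56.3 in BL/10, a ratio of 1.59.

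As a share of the reads on the 8 members, which is not corrected for gene length, Trim30a took 61.6%, 63.9% and 64.1% in NOD.B10 and 31.4%, 37.9% and 35.6% in BL/10. Trim12c took 4.22%, 5.26% and 4.12% in NOD.B10 and 19.1%, 19.4% and 18.9% in BL/10. For both genes the shares within a strain were closer to each other than to those of the other strain.

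**Figure D4:**
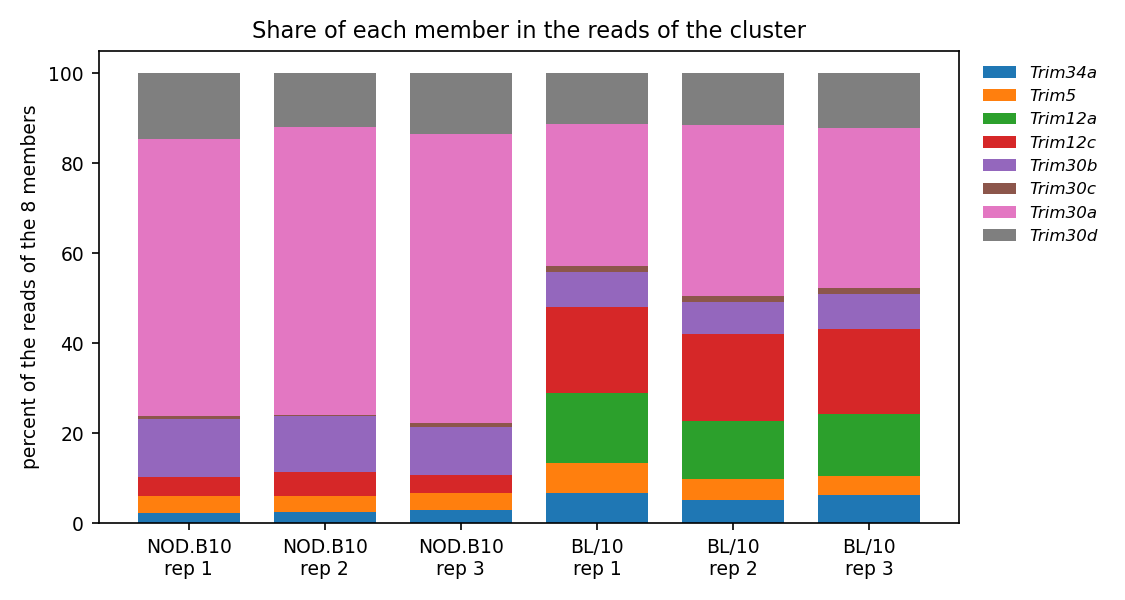
Each bar is a library and stacks the percent of the reads on the 8 members that fell on each member. Trim30a (pink) takes 61.6% to 64.1% in NOD.B10 and 31.4% to 37.9% in BL/10, and the Trim12a segment (green) can be seen in BL/10 only.

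Levels of different genes were compared per kb of exon length. In BL/10 the order by mean level was Trim30a (30.6 ± 4.13 CPM per kb), Trim12c (19.9 ± 3.06), Trim30d (12.0 ± 1.38), Trim12a (9.48 ± 2.06), Trim34a (5.51 ± 1.21), Trim5 (5.50 ± 2.03), Trim30b (4.92 ± 0.74) and Trim30c (3.54 ± 0.37). The ranges of the 3 libraries overlapped between Trim30d and Trim12a, between Trim34a and Trim5 and between Trim5 and Trim30b, so these neighbours in the order did not differ beyond their spread. In NOD.B10 the order was Trim30a (34.9 ± 3.09 CPM per kb), Trim30d (8.73 ± 1.56), Trim30b (4.91 ± 0.57), Trim12c (2.94 ± 0.12), Trim5 (2.44 ± 0.33), Trim34a (1.46 ± 0.23), Trim30c (1.09 ± 0.48) and Trim12a (0.0170 ± 0.0058). There, Trim34a and Trim30c were the neighbours whose ranges overlapped.

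The order depends on the length by which counts are divided. When counts were divided by the number of transcript windows found in no other gene instead of the exon length, an alternative chosen after the data were seen, Trim34a moved from rank 5 in BL/10 and rank 6 in NOD.B10 to rank 3 in both. Its level was then 22.03 ± 4.86 CPM per 1000 such windows in BL/10 and 5.86 ± 0.92 in NOD.B10. Trim30a remained first in both strains, and Trim12c remained second in BL/10, at 30.6 ± 4.71 CPM per 1000 windows.

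Members also varied within a strain. BL/10 replicate 1, the library with the strongest pancreas signal and the single BL/10 library labelled 26 weeks, was the highest BL/10 library for 7 of the 8 members. BL/10 replicate 3 was the lowest for all 8. NOD.B10 replicate 2 was the lowest NOD.B10 library for 6 members. Across the 6 libraries, log2 levels of Trim12a and Trim12c had a Pearson r of 0.998, those of Trim12a and Trim34a 0.984, and those of Trim12a and Trim30a -0.56. These points share 2 strains and their libraries, and the values are descriptions of the strain difference more than of variation within a strain.

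Genes with the most similar pattern over the 6 libraries were taken by the same correlation. For Trim30a, which has the highest level, they were Ints14 (r = 0.997), a subunit of the Integrator complex, Xrn1 (0.982), an exonuclease that degrades RNA, Zfp60 (0.976), a zinc finger gene, Psph (0.974), an enzyme of serine synthesis, and Ddx56 (0.971), an RNA helicase. For Trim12a, the member least like Trim30a, they were Skint3 (r = 0.9999), Gm12901 (0.999), BC049715 (0.999), Apobec3 (0.999), a cytidine deaminase that restricts retroviruses, and 4930481A15Rik (0.998). With Trim30a 20 genes reached an r of 0.95, and with Trim12a 435 did. Apobec3 had 42.2, 42.0 and 38.9 CPM in NOD.B10 and 264.2, 253.7 and 247.1 in BL/10, with a log2 fold change described here without a test since it was picked by this pattern.

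The genes around the cluster were tested in the same fit. Within 1 Mb of the cluster the table listed 143 other genes, many of them olfactory receptor genes with few or no reads, and 10 were tested. Of these, 3 rose and 1 fell in NOD.B10. By edgeR's quasi-likelihood test with Benjamini-Hochberg adjustment, 9.11% of all genes tested were called higher and 8.22% lower. The genes that changed lay inside the cluster or on its Trim30d side. All 4 had 6 or fewer counts in every library of the lower strain and so passed the filter through the higher strain. For this reason the count among the 10 is not read against these shares. The 4 genes are described below by their counts and ratios, without an adjusted p. With at least 10 counts in every library, none of the 4 was left.

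Trim34b (chr7:104300230-104336909, plus strand), a near copy of Trim34a, had 70, 58 and 86 counts in the NOD.B10 and 6, 1 and 4 in the BL/10 libraries. It was higher in all NOD.B10 libraries, with a log2 fold change of 4.24 (SE 0.36). The ratio of scaled counts was 19.5 (95% counting interval 10.7 to 39.7). The direction was opposite to that of Trim34a. The transcripts of Trim34a and Trim34b shared 1049 windows, which are 56.8% of the windows of Trim34b, and 875 exon bases. Summed, both genes reached 9.87, 9.21 and 12.2 CPM in NOD.B10 and 29.7, 20.7 and 20.5 in BL/10, and the sum was lower in every NOD.B10 library. Reads that fit both genes are lost from both, and the sum does not restore them.

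Trim30e-ps1 (chr7:104532959-104535361, minus strand), a Trim30 pseudogene beyond Trim30d, had 19, 16 and 27 counts in the NOD.B10 and 1, 0 and 1 in the BL/10 libraries. Its log2 fold change was 4.72 (SE 0.52), with a ratio of 31.1 (95% counting interval 8.25 to 262.3). None of its transcript windows occurred in an annotated transcript of another gene. Gm15133 (chr7:104315019-104324838, plus strand), a gene model at the 5′ end of Trim12a, had 1, 1 and 5 counts in the NOD.B10 and 55, 25 and 27 in the BL/10 libraries. It also lies inside the span of Trim34b on the same strand, and Trim34b went in the opposite direction. It shares no exon base with either gene, and 8.0% of its transcript windows also occurred in Trim30b. Gm15133 was lower in NOD.B10 as Trim12a was, with a log2 fold change of -3.85 (SE 0.55). The ratio, BL/10 over NOD.B10, was 15.3 (95% counting interval 7.15 to 38.8).

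Gm5900 (chr7:104949176-104950441, minus strand), farther along the chromosome, had 105, 131 and 115 counts in the NOD.B10 and 1, 0 and 1 in the BL/10 libraries. The ratio was 175.9 (95% counting interval 48.3 to 1458). Of its transcript windows, 72.4% also occurred in transcripts of another gene, Lamtor3. Trim6, the TRIM gene next to Trim34a, had 11, 11 and 23 counts in the NOD.B10 and 36, 19 and 20 in the BL/10 libraries. These libraries overlapped and Trim6 did not pass the test (log2 fold change -0.73, SE 0.36, edgeR adjusted p = 0.192). The beta-globin genes Hbb-bs, Hbb-bt and Hbb-bh1 and the genes Fam160a2 and Cavin3 did not pass it either, with log2 fold changes from -0.36 to 0.10.

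Most TRIM genes elsewhere in the genome did not pass the test. Of the 57 such genes listed, 35 were tested, 1 rose and 2 fell, beside 9.11% called higher and 8.22% lower over all genes, and their median log2 fold change was -0.028. Trim2, a ubiquitin ligase studied in neurons, fell by 0.92 on the log2 scale (SE 0.14, edgeR adjusted p = 0.00416), from 384, 419 and 471 counts in BL/10 to 233, 201 and 245 in NOD.B10. Trim25, which activates the RNA sensor RIG-I and is induced by interferon, fell by 0.42 (SE 0.11, edgeR adjusted p = 0.0395), with 1790, 1628 and 2128 counts in the NOD.B10 and 2377, 2368 and 2651 in the BL/10 libraries. Trim32, another ubiquitin ligase, rose by 0.53 (SE 0.11, edgeR adjusted p = 0.0157), with 243, 253 and 294 counts in the NOD.B10 and 202, 151 and 198 in the BL/10 libraries. None of these 3 passed the test when the single 26-week BL/10 library stood for that strain. When each library was left out in turn, Trim25 missed the threshold in 5 of 6 runs, all but that without BL/10 replicate 1 (edgeR adjusted p = 0.0596 to 0.141). Trim32 missed it in 2 runs, without NOD.B10 replicate 3 and without BL/10 replicate 2 (edgeR adjusted p = 0.0641 and 0.0545).

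**Figure D5:**
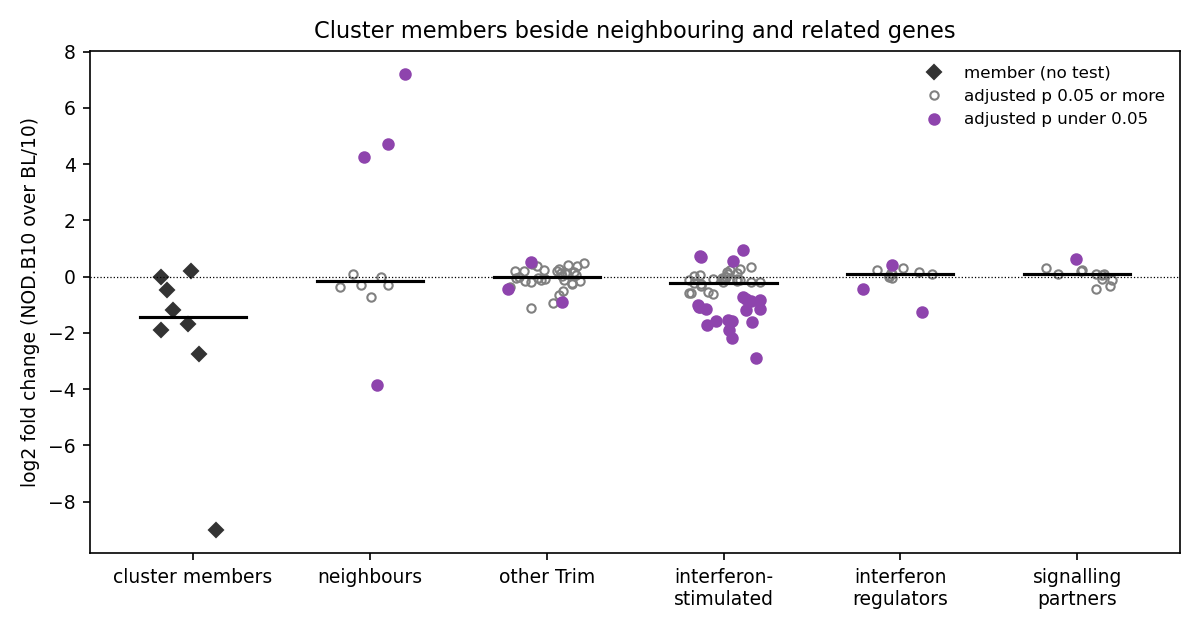
Each point is a gene, placed by its edgeR log2 fold change of NOD.B10 over BL/10, with filled purple points for an adjusted p under 0.05, open points for the others, diamonds for the untested members and a bar at the median of each group. The medians are -1.43 for the members, -0.16 for neighbours, -0.028 for other TRIM genes, -0.22 for interferon-stimulated genes, 0.078 for regulators and 0.081 for signalling partners.

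The promoters were examined because many genes of the cluster are interferon targets. RefSeq promoters (GRCm38.p6, 250 bases before to 50 after the start of a gene) were available for all 8 members and were searched on both strands for GAAANNGAA, the core of the interferon-stimulated response element, and TTCNNNGAA, a STAT site. These motifs can overlap in part but cannot match the same 9 bases. GAAANNGAA was present in the promoters of 6 members (Trim34a, Trim5, Trim12a, Trim12c, Trim30a and Trim30d) and in 2812 of all 32851 promoters (8.56%). TTCNNNGAA was present in that of Trim30c, and in 2726 of all promoters (8.3%). Neither was found for Trim30b, whose RefSeq start lies inside the gene span of the count table. The promoter of Trim30c, at chr7:104400779-104401028, is not adjacent to the gene span of the count table, which ends at 104390586. The stretches around GAAANNGAA are shown, 5′ to 3′ on the strand of the gene, with the motif in capitals in its reverse complement.
Trim34a: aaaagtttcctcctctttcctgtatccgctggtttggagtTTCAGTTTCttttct
Trim5, Trim12a and Trim12c: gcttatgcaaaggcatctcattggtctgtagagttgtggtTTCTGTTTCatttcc
Trim30a and Trim30d: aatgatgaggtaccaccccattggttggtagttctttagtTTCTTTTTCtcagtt
They lie at chr7:104244428-104244482 on the plus strand for Trim34a and, on the minus strand, at chr7:104288140-104288194 for Trim5, chr7:104315470-104315524 for Trim12a, chr7:104353363-104353417 for Trim12c, chr7:104465214-104465268 for Trim30a and chr7:104507875-104507929 for Trim30d. The 55 bases were the same in Trim5, Trim12a and Trim12c, and the same in Trim30d and the promoter of Trim30a shown. RefSeq gives a second start for Trim30a inside the gene, where the motif has the same letters (TTCTTTTTC) in a stretch at chr7:104446108-104446162 on the minus strand whose other bases differ in part. Among the members with the same 55 bases in the reference, Trim12a had 1 to 2 counts in NOD.B10 and 773 to 1251 in BL/10. Trim12c had 180 to 190 and 1083 to 1538, and Trim5 124 to 175 and 246 to 526. The bases that NOD.B10 carries there were not seen. Members with the motif included both Trim30a, whose strains overlapped, and Trim12c, which was lower in NOD.B10. A match describes these letters in the reference sequence only, and a link between the motif and these levels was not tested.

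Interferon-stimulated genes outside the cluster went in both directions. Of 50 listed genes 49 were tested, and 17 of them fell in NOD.B10 and 4 rose, beside 8.22% called lower and 9.11% higher over all genes. Their median log2 fold change was -0.22 beside 0.00060 for all genes, and the list shares no gene with the cluster. Among the 10 with the smallest adjusted p, 8 fell, namely Oas1a (-1.71, SE 0.18, edgeR adjusted p = 0.000964), Oasl1 (-1.60), Eif2ak2 (-1.16), Cmpk2 (-1.53), Oas2 (-1.59), Oas3 (-2.20), Ifih1 (-1.09) and Ifi27 (-0.74). The Oas genes make the second messenger that activates RNase L or are relatives of those that do, Eif2ak2 encodes the kinase PKR, and Ifih1 encodes the RNA sensor MDA5. The Oas genes have close paralogs, and their counts may be affected by shared reads in the same way as those of the cluster. The 2 that rose were Slfn1 (0.72, SE 0.12, edgeR adjusted p = 0.00703), a Schlafen gene, and Gbp2 (0.96, SE 0.16, edgeR adjusted p = 0.0076), a guanylate-binding GTPase. With the 26-week libraries only, which leave a single BL/10 library, 6 of the list fell and 1 rose, and without BL/10 replicate 1, 22 fell and 4 rose.

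Among 12 regulators of the interferon response, Irf7, which drives the amplification of type I interferon, fell by 1.26 on the log2 scale (SE 0.26, edgeR adjusted p = 0.0155), with 786, 530 and 785 counts in the NOD.B10 and 1155, 1910 and 1878 in the BL/10 libraries. Irf9, the DNA-binding subunit of the factor ISGF3, fell by 0.43 (SE 0.11, edgeR adjusted p = 0.0405), and Irf1 rose by 0.42 (SE 0.11, edgeR adjusted p = 0.039). Thus 1 of the 12 rose and 2 fell, beside 9.11% called higher and 8.22% lower over all genes. The kinases Jak1 and Tyk2, the receptor subunits Ifnar1 and Ifnar2, and Irf3, Irf5, Irf8 and Stat2 did not pass the test, with log2 fold changes from -0.06 to 0.30. None of the 12 passed it with the 26-week libraries only. With each library left out in turn, Irf7 missed the threshold in 2 of 6 runs, without NOD.B10 replicate 3 and without BL/10 replicate 3 (edgeR adjusted p = 0.0559 and 0.0502). Irf1 missed it in 4 runs, all but those without NOD.B10 replicate 2 and without BL/10 replicate 1, and Irf9 in 5, all but that without BL/10 replicate 1. Irf3 passed it without BL/10 replicate 1 (edgeR adjusted p = 0.0445).

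The proteins on which TRIM30A and TRIM12C are known to act, and the signalling genes around them, were tested as a list of 12 genes. The test was passed by 1 of them, as higher, beside 9.11% called higher and 8.22% lower over all genes. This gene was Tmem173, which encodes the DNA-sensing adaptor STING. It had 1749, 1600 and 1997 counts in the NOD.B10 and 1500, 913 and 1049 in the BL/10 libraries, and rose by 0.64 on the log2 scale (SE 0.13, edgeR adjusted p = 0.0167). With the 26-week libraries only it did not pass, nor in 4 of the 6 runs that left out a library, all but those without NOD.B10 replicate 2 and without BL/10 replicate 1 (edgeR adjusted p = 0.0534 to 0.0649). Tab2 and Tab3 had log2 fold changes of -0.09 (SE 0.11, edgeR adjusted p = 0.605) and -0.43 (SE 0.21, edgeR adjusted p = 0.187), and Traf6, the partner of TRIM12C, of 0.20 (SE 0.08, edgeR adjusted p = 0.104). Map3k7, Traf3, Tbk1, Ikbkg, Nfkb1, Rela, Mavs and Nlrp3 had log2 fold changes from -0.33 to 0.31 and did not pass. Without BL/10 replicate 1, Nfkb1 passed as higher and Mavs and Tab3 as lower in NOD.B10 (edgeR adjusted p = 0.0331, 0.0348 and 0.0255).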

How the data were processed

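The authors sequenced spleen RNA from 3 females of each strain and deposited raw read counts per gene. These were made with featureCounts 1.5.1 from Ensembl 84 exons (GRCm38), per the file headers. The header's command names no option for strand or multi-mapped reads. The paper names Tophat2 as the aligner and the submitters' processing notes name HISAT2 2.0.5. Libraries were assigned to strains by their descriptions, against their titles, and the members and gene lists were chosen with earlier results of these data known. Nothing says that numbered libraries of the strains belong together, and deviations of same-numbered libraries had correlations of 0.032, 0.17 and -0.084, so no block was used.

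Counts were fitted with edgeR 4.0.16 in R 4.3.3 (filterByExpr, TMM, quasi-likelihood test, BL/10 as reference, Benjamini-Hochberg adjusted p under 0.05 over 15330 genes). Symbols matched for 47224 of 47729 identifiers. Where a gene had 6 or fewer counts in each library of a strain, the ratio of summed scaled counts is given with its exact counting interval. That interval treats the summed reads of a strain as 1 sample and leaves out the spread between animals. All members and signalling partners are named, as are the interferon regulators except 1 that is not reported here, other TRIM genes and neighbours past the threshold, the 10 interferon-stimulated genes with the smallest adjusted p, and the 5 genes most correlated, on log2(CPM + 1), with Trim30a and with Trim12a. Further genes, including Trim6, Apobec3 and Ifi202b, were named after their values were seen. On simulated counts, 193 of 200 changed genes were found and 21 unchanged genes were called among 15133. All changed genes were simulated with the same fold size, up or down. That size was larger than the changes of the named TRIM genes elsewhere, regulators and signalling partners. Smaller changes were not simulated, so these numbers do not cover them. Alternatives were DESeq2 1.42.0, limma 3.58.1 (voom), RLE size factors, 2 other filters, no hemoglobin or immunoglobulin genes, a replicate block, a stricter threshold and leaving out each library.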

Additional observations from a re-analysis of the deposited data

How the results depend on the processing

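The log2 fold change of Trim30b, close to 0, changed sign with the setting. It was 0.08 with voom, 0.0011 with the replicate block and 0.11 without BL/10 replicate 1. Without NOD.B10 replicate 2 it was 0.05, and without NOD.B10 replicate 3 it was 0.04. The other 7 members kept their sign under each alternative that gave them a value. Over these alternatives the log2 fold changes ranged from -2.24 to -1.72 for Trim34a, -1.66 to -0.85 for Trim5, -2.93 to -2.68 for Trim12c, -1.999 to -1.39 for Trim30c, -0.60 to -0.32 for Trim30d, -0.22 to 0.11 for Trim30b and 0.09 to 0.28 for Trim30a. The fitted value of Trim12a was between -9.33 and -8.78, and it has no value when at least 10 counts are asked of every library, where 0 neighbours were called higher and 0 lower because the 4 called genes drop out.

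Leaving out each library in turn gave 680 to 1917 genes higher and 589 to 2190 lower in NOD.B10, where all libraries gave 1396 and 1260. The lowest counts were those without NOD.B10 replicate 1 and the highest those without BL/10 replicate 1. In the same runs, other TRIM genes had 0 to 2 higher and 1 to 6 lower, interferon-stimulated genes 2 to 4 and 11 to 22, regulators 0 to 2 and 0 to 2, and signalling partners 0 to 2 and 0 to 2. At an adjusted p under 0.01, 555 genes were higher and 480 lower. With the 26-week libraries only, chosen after seeing the data, 458 genes were higher and 543 lower, other TRIM genes had 0 and 0, interferon-stimulated genes 1 and 6, regulators 0 and 0, and partners 0 higher. The lone BL/10 library is there assumed to vary like the others. DESeq2 called 2 other TRIM genes higher and 4 lower, 2 regulators higher and 2 partners higher. The voom fit called 2 other TRIM genes and 2 partners higher, and the fit with no filter beyond 1 count called 2 other TRIM genes higher. With the replicate block, 1 regulator was lower, 1388 genes were higher and 1501 lower. The causes of these changes were not tested. Of the values for single genes and medians, 732 kept their call or stayed within the spread, 33 lost the call, 7 gained it and 25 moved. Depth limits Trim12a in NOD.B10 and the 4 called neighbours in their lower strain, which rest on 11 or fewer reads in all.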
